A study of Mus musculus with 5 samples.

Results

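Barx1, Nkx3-2, Foxf1a, Pdgfra, Tnc, Postn, Acta2 and Tagln are 8 genes of the gut mesenchyme and of smooth muscle. They were chosen with earlier results of these data known and taken from the expression table by exact gene name. All 8 were found among the table's 12375 named loci. Expression was measured by RNA-seq of poly(A) RNA in C57BL/6J mouse embryos, with 1 library for each of 5 tissues. The E8.5 libraries (E, embryonic day) came from foregut and medial foregut, and the E10.5 libraries from liver and from tissue labelled as ventral or dorsal pancreas. No transgene, mutation or treatment is named in the labels, and neither the number of embryos per library nor the way of isolating the tissue is stated there. Values are FPKM, fragments scaled to transcript length and to all mapped fragments, so levels of different genes can be set side by side per unit length. With 1 library per tissue there was no replicate error and no test, and neighbouring values in an order of levels could not be separated from chance. Without values per cell, fewer cells of a type and less RNA per cell cannot be told apart.

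The gut tube consists of an inner endodermal epithelium and a surrounding mesenchyme from the lateral plate mesoderm. The epithelium secretes Hedgehog ligands, and the mesenchyme answers through GLI factors and forms smooth muscle, connective tissue and the stroma of the organs that bud from the gut. Barx1 and Nkx3-2 encode homeodomain factors, known from stomach mesenchyme and, for Nkx3-2, also from the splanchnic mesoderm beside the dorsal pancreas and the sclerotome. Foxf1a is the table's name for Foxf1, a forkhead factor of splanchnic mesoderm and a Hedgehog target. Pdgfra encodes a receptor for platelet-derived growth factors, Tnc and Postn the matrix proteins tenascin-C and periostin, Acta2 smooth muscle actin and Tagln the actin-binding protein transgelin. Acta2 and Tagln are also known to be expressed for a time in the early heart.

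The labelled tissues were first set against their defining genes. Alb, encoding albumin, stood at 1051 FPKM in liver and at 97.0 or less in the other libraries. The pancreatic factor gene Pdx1 had 39.2 FPKM in the ventral and 40.9 in the dorsal pancreatic library and 0.945 or less elsewhere. Epcam, a marker of epithelium, ranged from 28.4 FPKM in liver to 343 in ventral pancreas. Both E8.5 libraries held heart muscle transcripts: all 16 genes found of a 20-gene cardiomyocyte list were at 5 FPKM or more in each, with a summed level of 5759 FPKM in foregut and 9921 in medial foregut. Liver had a sum of 532 FPKM, ventral pancreas 34.5 and dorsal pancreas 28.2, and the ventricular myosin gene Myl2 was listed at 0 in both pancreatic libraries. The summed FPKM of all loci lay between 437581 and 506529 per library, and depth in reads is unknown.

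**Figure D1:**
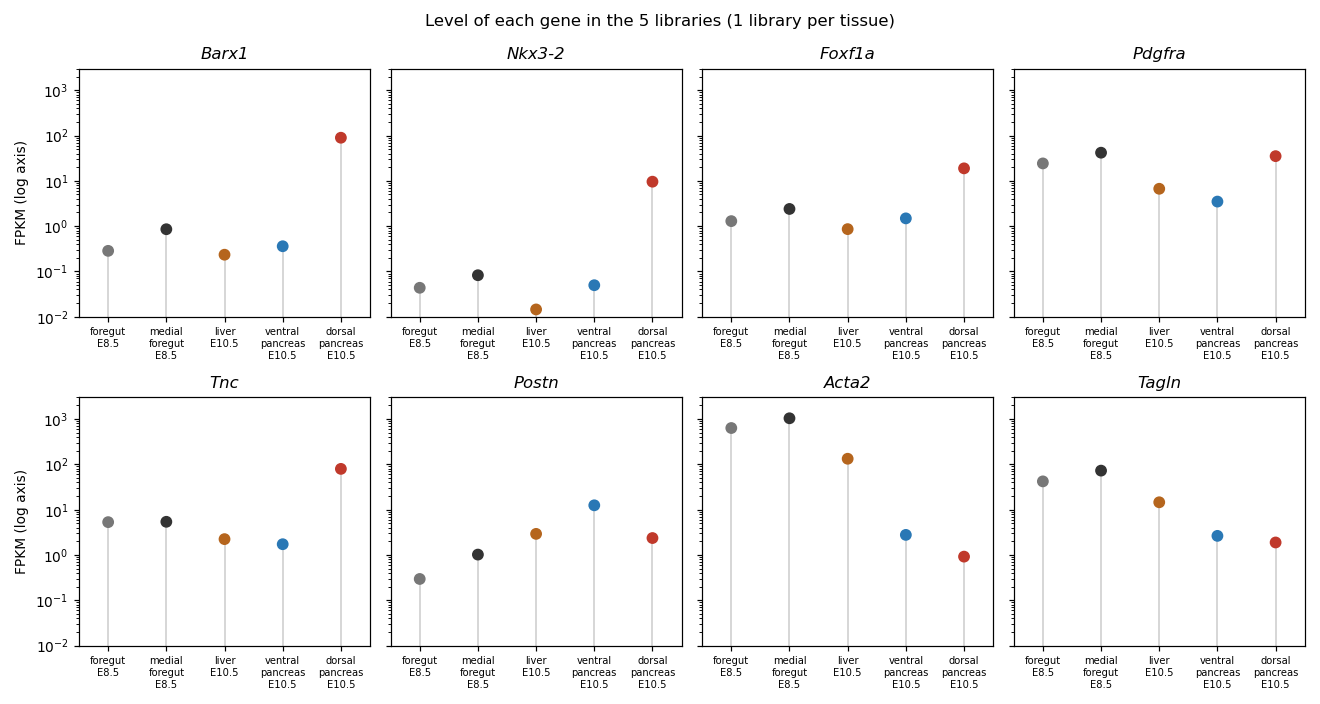
Level of each of the 8 genes in FPKM on a log axis, 1 point per library (grey and black E8.5, brown liver, blue ventral pancreas, red dorsal pancreas). Barx1, Nkx3-2, Foxf1a and Tnc have their highest point in dorsal pancreas, Postn in ventral pancreas, and Pdgfra, Acta2 and Tagln in medial foregut.

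The 8 genes did not share 1 pattern. Barx1, Nkx3-2, Foxf1a and Tnc were highest in dorsal pancreas, Acta2 and Tagln were high at E8.5, lower in liver and lowest in the pancreatic libraries, Pdgfra was high at E8.5 and in dorsal pancreas, and Postn was highest in ventral pancreas. The distance between any 2 of these profiles was measured as the root mean square difference over the 5 libraries of log2(FPKM + 1), each gene centred on its own mean. The closest pair was Foxf1a with Nkx3-2 at 0.28, followed by Nkx3-2 with Tnc at 0.59. Acta2 and Barx1 lay farthest apart at 5.59. The smooth muscle genes Acta2 and Tagln, with the same order of libraries, stood 1.93 apart because this measure keeps the size of each difference.

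Differences between libraries are on the log2(FPKM + 1) scale, on which low genes show less of their change. The words called higher or called lower stand for a difference with a size of 2 or more (4 times in FPKM + 1), provided that the higher library reached 5 FPKM and, where a comparison had 2 reference libraries, that the direction was the same against each.

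The 3 transcription factor genes stood out by their level in dorsal pancreas. Barx1 (XLOC_014000, mm9 chromosome 13, 48758346 to 48765966, plus strand) stood at 0.285 FPKM in the foregut and 0.855 in the medial foregut, and among the E10.5 libraries liver had 0.234, ventral pancreas 0.360 and dorsal pancreas 89.3. Dorsal pancreas thus held 98.1% of the gene's summed FPKM, and its level was 104 times that of the next library, medial foregut. In dorsal pancreas 95.0% of the named loci were lower than Barx1, and in ventral pancreas 4.0%.

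Nkx3-2 (XLOC_041853, mm9 chromosome 5, 42151239 to 42156830, minus strand) showed the same split at a lower level. At E8.5 it stood at 0.0436 FPKM in foregut and 0.0826 in medial foregut, and at E10.5 liver had 0.0145, ventral pancreas 0.0497 and dorsal pancreas 9.57. Only the dorsal library reached 0.1 FPKM, so ratios between the other 4 rest on very low values of unknown depth. Dorsal pancreas held 98.0% of its summed FPKM.

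Foxf1a (XLOC_053084, mm9 chromosome 8, 123582669 to 123612955) was present at a low level everywhere and higher in dorsal pancreas. Foregut had 1.29 FPKM, medial foregut 2.40, liver 0.859, ventral pancreas 1.48 and dorsal pancreas 18.8, the last being 7.87 times the next library. The table places this locus on the minus strand, whereas GENCODE M21 (GRCm38) has Foxf1 on the plus strand with a span of 3758 bp. The locus spans 30286 bp. On the minus strand GENCODE annotates Fendrr, a long non-coding RNA gene that starts close to Foxf1, at chromosome 8, 121054882 to 121083110 of GRCm38, a span of 28228 bp. The protocol describes no strand marking, so the value cannot be assigned to Foxf1 alone and reads of Foxf1 and Fendrr cannot be told apart in it.

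In ventral against dorsal pancreas, 208 of 12375 named loci (1.68%) were called in either direction. Of the 8 genes 5 were called lower in ventral pancreas, where 0.768% of all named loci were, and 1 was called higher, where 0.913% were. Barx1 had the lowest of all 12375 ventral-minus-dorsal differences, at -6.05, and Tnc the next, at -4.88. Nkx3-2 followed at -3.33 (17th from the lowest), Pdgfra at -3.01 (28th) and Foxf1a at -2.998 (30th). In FPKM, dorsal pancreas exceeded ventral pancreas 248 times for Barx1, 193 times for Nkx3-2, 46 times for Tnc, 12.7 times for Foxf1a and 10.1 times for Pdgfra. The median difference of the 8 genes in dorsal minus ventral pancreas was 3.002, against -0.01 over all named loci.

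**Figure D2:**
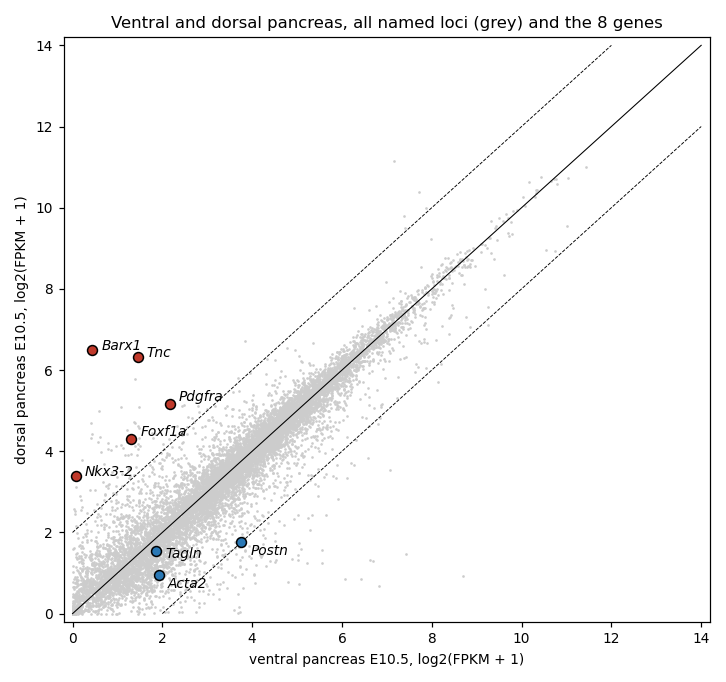
Level in dorsal pancreas against ventral pancreas, both as log2(FPKM + 1), for 12375 named loci (grey) and the 8 genes (red where dorsal is higher, blue where ventral is higher). The solid line marks equal levels and the dashed lines a difference of 2; Barx1, Tnc, Pdgfra, Foxf1a and Nkx3-2 lie above the upper dashed line and Postn on the lower one.

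Other transcription factor genes of the gut mesenchyme were examined as a list of 20, of which 19 were found. In ventral against dorsal pancreas 5 of the 19 were called lower and 0 higher, beside 0.768% and 0.913% of all named loci. The median difference was -1.13 against 0.01 over all named loci. Six2, known from the distal stomach and pylorus, went from 0.340 FPKM (ventral) to 25.1 (dorsal), its locus covering 27.6% of the annotated gene length. Nkx2-3, a factor of gut and spleen mesenchyme, stood at 0.0501 and 7.67 FPKM, and Hlx, a homeobox gene of visceral mesenchyme named after its values were seen, at 1.73 and 15.6. Isl1, at 13.3 and 104 FPKM, is also a gene of endocrine cells. Of the other 14, the forkhead gene Foxf2 stood at 0.140 and 4.86 FPKM and the spleen gene Tlx1 at 0.0197 and 4.99, both short of the 5 FPKM minimum; these 2 were named after their values were seen. The list was not lower in ventral pancreas throughout: Gata6 stood at 33.6 and 11.2 FPKM and Tbx5 at 2.88 and 0.0657, both also named after their values were seen.

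In dorsal pancreas against both E8.5 libraries, 2.63% of the named loci were called, 1.45% higher and 1.18% lower. Of the 8 genes, Barx1, Nkx3-2, Foxf1a and Tnc were called higher and Acta2 and Tagln lower. Barx1 differed by 6.14 from foregut and 5.61 from medial foregut, the 4th highest of all named loci by the smaller difference. Nkx3-2 differed by 3.34 and 3.29, and Foxf1a by 3.12 and 2.55. Of the 19 other gut mesenchyme factors, Hlx, Six2 and Isl1 were called higher in dorsal pancreas than at E8.5 and Tbx5 lower, with medians of 0.70 and 0.30 against 0.09 and 0.11 over all named loci. Liver and ventral pancreas lacked such differences for the 3 factor genes. None of the 3 was called there against E8.5, and the differences lay between -0.87 and 0.12. Of all named loci 4.4% were called in liver against E8.5, 2.12% lower, and 3.45% in ventral pancreas, 1.49% lower. Of the 19 other factors 4 were called lower and 0 higher in each. Their median differences from foregut and medial foregut were -1.27 and -1.64 in liver, beside -0.09 and -0.08 over all named loci. In ventral pancreas they were -0.97 and -1.78, beside 0.11 and 0.12.

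Hedgehog components, which signal from gut epithelium to mesenchyme, were all found (13 of 13). In ventral against dorsal pancreas the target and effector gene Gli1 (1.36 and 13.9 FPKM) and the effector gene Gli2 (0.823 and 15.4) were called lower and the other 11 were not called. The list's median was -0.26. The ligand gene Shh had 10.2 FPKM in the foregut and 7.35 in the medial foregut, with 0.00678 for liver, 3.14 for ventral pancreas and 0.417 for dorsal pancreas. Shh was therefore higher in the ventral than in the dorsal library, unlike Gli1 and Gli2, and was called lower in liver and in dorsal pancreas than at E8.5.

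**Figure D3:**
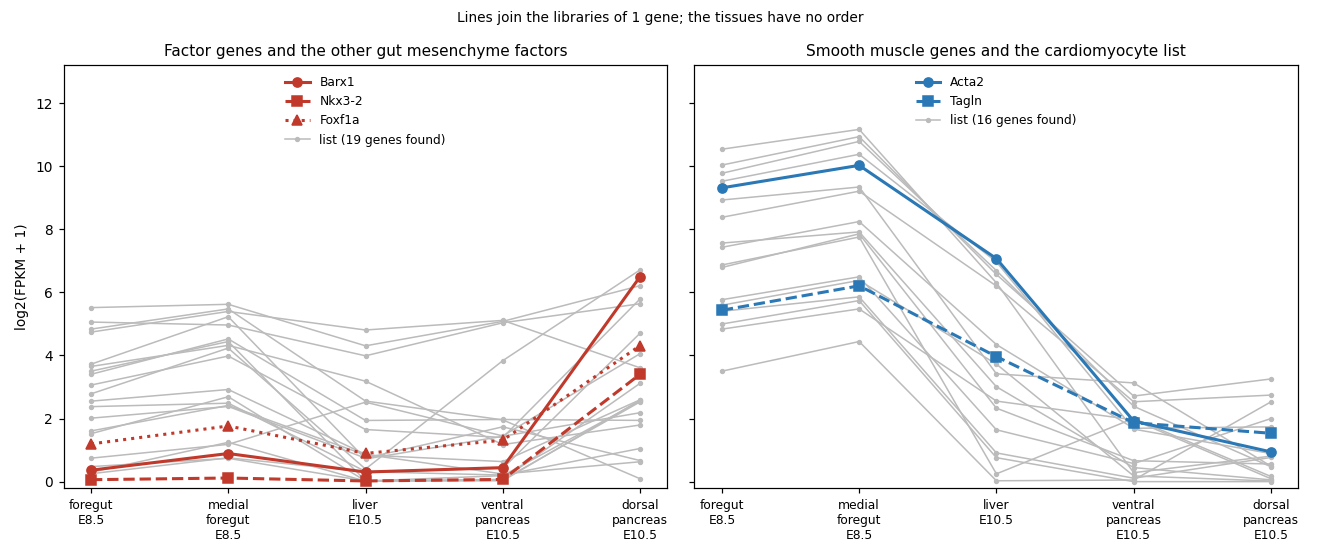
Left, log2(FPKM + 1) by library of Barx1, Nkx3-2 and Foxf1a (red) and the 19 other gut mesenchyme factor genes found (grey); right, Acta2 and Tagln (blue) and the 16 cardiomyocyte genes found (grey). The 3 factor genes have their highest value in dorsal pancreas. Acta2, Tagln and the grey genes on the right are higher in both E8.5 libraries than in either pancreatic one.

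Pdgfra, the receptor gene, was shared by the E8.5 libraries and dorsal pancreas. At XLOC_041355 (mm9 chromosome 5, 75547389 to 75594239, plus strand) the foregut had 24.2 FPKM, the medial foregut 41.7, liver 6.68, ventral pancreas 3.48 and dorsal pancreas 35.0. The highest library was 1.19 times the next, and 12 times the lowest. Pdgfra was called lower in ventral pancreas than in both E8.5 libraries, by -2.49 and -3.25, in a comparison in which 3.45% of named loci were called, 1.49% lower and 1.96% higher. Liver was not called against E8.5 because its difference from foregut was -1.72, although that from medial foregut was -2.48. Among the 6 other genes of the PDGF family, all found, 0 were called between the pancreatic libraries, where 1.68% of all named loci were. The ligand gene Pdgfa was at 18.6, 24.2, 8.89, 7.18 and 6.76 FPKM in foregut, medial foregut, liver, ventral and dorsal pancreas. The ligand gene Pdgfc was called higher in dorsal pancreas than at E8.5, at 18.2 FPKM against 3.76 and 2.70. Pdgfrb, the other receptor of the family and a marker of pericytes, did not follow Pdgfra and stayed between 2.72 FPKM in ventral pancreas and 7.27 in medial foregut. Pdgfa and Pdgfrb were named after their values were seen.

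The matrix genes Tnc and Postn lay on opposite sides of the pancreatic comparison. Tnc (XLOC_038039, mm9 chromosome 4, 63620820 to 63708357, minus strand) stood at 5.32 FPKM in the foregut, 5.42 in the medial foregut and 2.25 in the liver, while the ventral pancreas had 1.73 and the dorsal pancreas 79.7. Dorsal pancreas was 14.7 times the next library, and the E8.5 libraries differed from each other by a factor of only 1.02. Tnc was called higher in dorsal pancreas than at E8.5, by 3.67 and 3.65.

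Postn (XLOC_034435, mm9 chromosome 3, 54165045 to 54194961, plus strand) had 0.297 FPKM in the foregut and 1.02 in the medial foregut, with 2.93 for liver, 12.5 for ventral pancreas and 2.37 for dorsal pancreas. It was the only 1 of the 8 genes with its highest level in ventral pancreas, 4.27 times the next library, liver. Against dorsal pancreas the difference was 2.00, at the edge of the size rule, and it became 1.98 and was not called with libraries rescaled by median ratios. Postn was called higher in ventral pancreas than in both E8.5 libraries, by 3.38 and 2.74.

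The 250 bases before 1 of the 2 RefSeq starts of each gene are shown for these 2 genes because they are the matrix genes that part between the pancreatic libraries. They are RefSeq promoter sequences in GRCm38.p6, 5′ to 3′ on the gene's strand, for Tnc chr4:64047016-64047265 (minus strand) and for Postn chr3:54360857-54361106 (plus strand), with the TATA box letters TATAAA in capitals.
Tnc: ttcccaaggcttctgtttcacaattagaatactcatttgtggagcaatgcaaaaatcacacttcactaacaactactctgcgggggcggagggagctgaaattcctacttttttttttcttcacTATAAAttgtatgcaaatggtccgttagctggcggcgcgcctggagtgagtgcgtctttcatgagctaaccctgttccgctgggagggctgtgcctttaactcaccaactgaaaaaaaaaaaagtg
Postn: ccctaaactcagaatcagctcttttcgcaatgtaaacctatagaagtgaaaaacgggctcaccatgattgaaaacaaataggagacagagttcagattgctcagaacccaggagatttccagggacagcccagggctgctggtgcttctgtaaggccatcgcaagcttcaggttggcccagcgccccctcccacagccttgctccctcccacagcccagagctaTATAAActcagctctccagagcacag
No GENCODE M21 exon overlaps either window; the other Tnc start lies 79 bases inside the gene and its window holds the same match, and the window of the other Postn start holds none. The match in Postn lies 26 to 21 bases before the start, and that in Tnc 126 to 121 bases before it. Other forms of the TATA box were not searched, such as the letters tatataag near the end of the other Tnc window. Of 32851 promoter windows of the same length, 12.4% hold TATAAA on either strand. Neither sequence held the GLI motif GACCACCCA (0.225% of windows) or the forkhead motif TGTTTAC (3.17%), searched on both strands.

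Among 34 other matrix and matrix-receptor genes 27 were found. Between the pancreatic libraries 1.68% of all named loci were called, and of these 27 genes 1 was, Col5a2. It went from 8.70 FPKM (ventral) to 39.9 (dorsal), at a locus that covers only a small stretch of the annotated gene. The list's median difference was 0.19 against 0.01 over all named loci, on the other side of 0 from Tnc. The collagen gene Col3a1 was called higher than at E8.5 in all 3 E10.5 libraries, with 34.3 FPKM for liver, 24 for ventral and 62.3 for dorsal pancreas where the foregut had 2.18 and the medial foregut 2.78. Thbs1, encoding thrombospondin-1, had the profile nearest to Postn of 10487 single-name loci with a mean of at least 1 FPKM. It stood at 2.98, 3.06, 6.64, 30.1 and 7.40 FPKM in foregut, medial foregut, liver, ventral and dorsal pancreas, and was called higher in ventral pancreas than at E8.5.

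Acta2 had the widest range of the 8 genes. At XLOC_028242 (mm9 chromosome 19, 34266646 to 34330709, minus strand) the foregut had 635 FPKM, the medial foregut 1042, liver 133, ventral pancreas 2.78 and dorsal pancreas 0.923. Medial foregut was 1129 times dorsal pancreas. By rank, Acta2 was the 28th highest of 12375 named loci in medial foregut, the 40th in foregut, the 444th in liver, the 9593rd in ventral and the 11134th in dorsal pancreas. The same interval is given to Stambpl1 on the opposite strand, which stood at 3.53, 6.85, 3.86, 0.770 and 0.951 FPKM in foregut, medial foregut, liver, ventral and dorsal pancreas. In dorsal pancreas the 2 loci were thus at like levels. GENCODE M21 places Stambpl1 next to Acta2 without overlap, so the shared interval is the table's, and how reads were divided within it is not stated.

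Tagln (XLOC_055919, mm9 chromosome 9, 45715055 to 45744158, minus strand) followed the same order of libraries. The foregut had 42.2 FPKM, the medial foregut 72.9, liver 14.6, ventral pancreas 2.65 and dorsal pancreas 1.89, and the highest library was 38.5 times the lowest. Its interval is shared with Pcsk7 on the opposite strand, which stayed between 2.44 and 3.28 FPKM in all 5 libraries. Of the 100-base windows of the longest Tagln coding transcript in GENCODE M21, 33.2% also occur in transcripts of Pcsk7 or Gm48529, so part of its reads cannot be assigned to Tagln alone. For Acta2 the same count was 0 of 1936 windows, related actin genes included.

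Liver was called higher than both pancreatic libraries for Acta2, by 5.15 and 6.13, and for Tagln, by 2.10 and 2.43. In this comparison 2.55% of the named loci were called, 1.04% higher and 1.51% lower, and Acta2 ranked 4th from the highest by the smaller difference. The other 6 genes were not called. The factor genes, Pdgfra and Tnc differed from dorsal pancreas by -2.23 to -6.19 but from ventral pancreas by only -0.42 to 0.78, and Postn differed by -1.78 from ventral and 0.22 from dorsal pancreas. Against both E8.5 libraries, where 4.4% of the named loci were called, 2.29% higher and 2.12% lower, liver was lower for Acta2 (-2.24 and -2.96) and the other 7 genes were not called. Ventral pancreas was lower than E8.5 by -7.39 and -8.11 for Acta2, the 3rd lowest of all named loci, and by -3.57 and -4.34 for Tagln. Dorsal pancreas was lower by -8.37 and -9.08 for Acta2, the 5th lowest, and by -3.90 and -4.67 for Tagln. The comparisons with E8.5 share the same 2 E8.5 libraries, so their values are not independent.

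**Figure D4:**
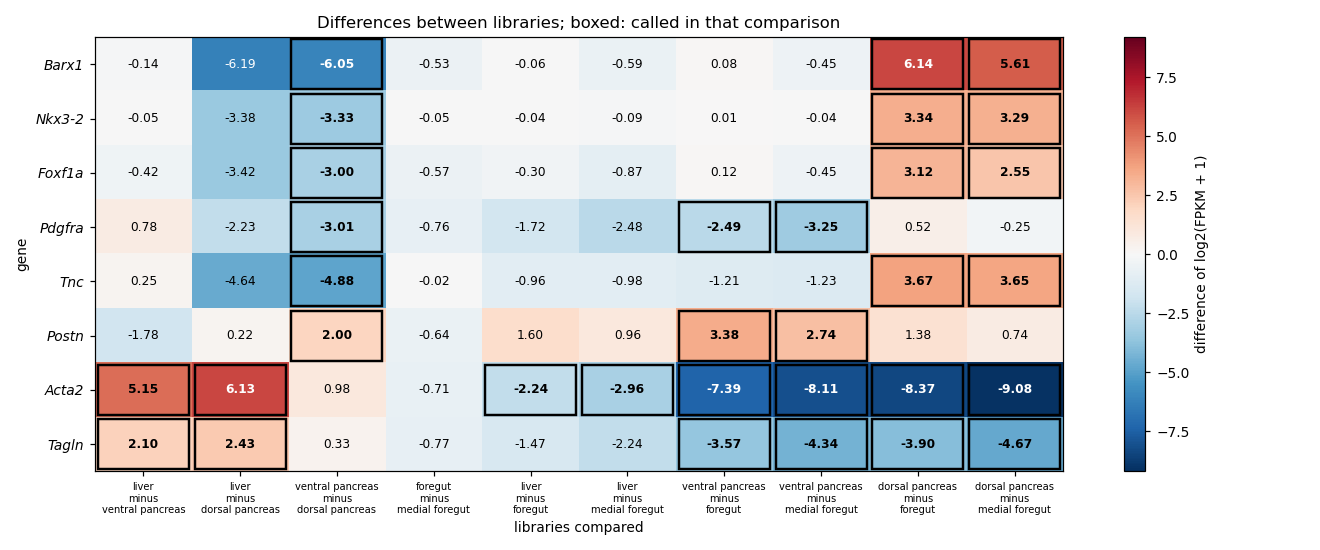
Differences of log2(FPKM + 1) between pairs of libraries for the 8 genes, red where the first library is higher and blue where it is lower; boxes and bold type mark genes called in that comparison. The boxes for Barx1, Nkx3-2, Foxf1a and Tnc lie where dorsal pancreas is compared, and those for Acta2 and Tagln where an E8.5 or the liver library meets a pancreatic one, with Acta2 also boxed for liver against E8.5.

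The genes with the profile nearest to Acta2 were sarcomere genes of the heart. Over the 5 libraries the distance was 0.22 for Myl4, encoding an atrial myosin light chain, 0.50 for Tnnt2, encoding cardiac troponin T, and 0.89 for Myl7, encoding the other atrial light chain. Myl4 stood at 734, 1329, 124, 2.17 and 0.852 FPKM in foregut, medial foregut, liver, ventral and dorsal pancreas, at a locus that covers 22.3% of its annotated length. Tnnt2 stood at 875, 1764, 102, 4.23 and 0.388 FPKM in the same order. In liver against both pancreatic libraries 8 of the 16 cardiomyocyte genes found were called higher and 0 lower, among them Actc1, encoding cardiac actin, at 77.9, 0.217 and 0.752 FPKM. Against E8.5, liver had 15 of 16 called lower, ventral pancreas 16 of 16 and dorsal pancreas 15 of 16. The heart genes called in these comparisons were called in the direction of Acta2. The 8 not called in liver against both pancreatic libraries included Nkx2-5, a cardiac factor gene, with 0.0191 FPKM for liver, 0.0358 for ventral and 4.77 for dorsal pancreas, and the myosin light chain gene Myl3, with 0.186, 3.01 and 0.119; both were named after their values were seen. The part of heart cells in the values of Acta2 and Tagln was not tested.

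Genes linked to smooth muscle were examined as a list of 24, all found, which held contractile and cytoskeletal genes and also regulators such as Myocd and Srf. In liver against both pancreatic libraries 0 of the 24 were called in either direction, where 2.55% of all named loci were. The medians were 0.25 and 0.20 against -0.17 and -0.16 over all named loci. Against E8.5, liver had 4 genes called lower, ventral pancreas 7 and dorsal pancreas 5, with 0 called higher. Of all named loci 2.12%, 1.49% and 1.18% were called lower in these 3 comparisons. Cnn1, encoding calponin, had 36.7 FPKM in the foregut and 67.2 in the medial foregut, with 4.62 for liver, 0.375 for ventral and 0.288 for dorsal pancreas. Myocd, encoding the cardiac and smooth muscle co-activator myocardin, stood at 17.6, 31.7, 1.28, 0.0184 and 0.0162 FPKM in that order. Both genes are also active in the early heart. Both were higher in liver than in the pancreatic libraries, and Cnn1 was not called there because 4.62 FPKM is short of the 5 FPKM minimum. Flna went the other way, at 98.0 FPKM for liver, 159 for ventral and 206 for dorsal pancreas, and was named after its values were seen. Myh11, encoding the myosin heavy chain that defines mature smooth muscle, was under 1 FPKM in all 5 libraries, between 0.0263 in ventral pancreas and 0.974 in liver; it was named after its values were seen. Des, encoding desmin of muscle and pericytes, was the only gene of the list called between the pancreatic libraries, from 2.40 FPKM (ventral) to 21.0 (dorsal).

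Other actin genes differed in their patterns. Actc1 and Acta1, encoding cardiac and skeletal actin, were called lower in each E10.5 library than at E8.5. Actb, the cytoplasmic beta-actin gene, ranged only from 341 FPKM in ventral pancreas to 523 in medial foregut; it was named after its values were seen. Actg2, encoding the gamma actin of visceral smooth muscle, stood at 4.73, 8.58, 1.79, 0.554 and 0.0750 FPKM and was not called against E8.5. Its difference from foregut was -1.04 in liver and -1.88 in ventral pancreas, short of the size of 2, and -2.42 in dorsal pancreas, where the foregut level was short of 5 FPKM; it too was named afterwards.

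SRF, the factor that works with myocardin, binds CArG boxes, and 2 such elements are well known in the Acta2 promoter. The RefSeq window of 250 bases before the Acta2 start held no CArG box with only A or T in its core. Allowing 1 G or C in the core, a form searched after the strict form gave no match, found 2 elements, shown here with 10 bases on either side and the element in capitals. They lie on the minus strand of GRCm38.p6 at chr19:34255438-34255467 and chr19:34255388-34255417.
Acta2 upstream element: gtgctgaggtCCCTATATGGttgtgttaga
Acta2 downstream element: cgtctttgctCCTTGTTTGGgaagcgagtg
The upstream element covers bases 84 to 75 before the RefSeq start and the downstream element bases 34 to 25. GENCODE M21 annotates 217 of the 250 bases of this window, both printed stretches included, as exon of Acta2. The relaxed form occurs in 8.59% of 32851 promoter windows and the strict form in 1.47%. Promoter windows were found for 6 of the 8 genes, all but Foxf1a and Tagln, and the relaxed form occurred in those of Acta2 only.

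Foregut and medial foregut were close, and 0 of the 8 genes were called between them, as were 6 of all 12375 named loci (0.0485%), 5 higher in foregut (0.0404%) and 1 lower (0.00808%). All 8 were higher in medial foregut, as were 49.4% of the named loci, and the median difference of the 8 in medial foregut minus foregut was 0.60 against -0.00 over all named loci. Of the 5 genes at 1 FPKM or more in both libraries, 4 were at least 1.5 times higher in medial foregut: Acta2 1.64 times, Pdgfra 1.72 times, Tagln 1.73 times and Foxf1a 1.86 times. Among 10388 named loci at that level 5.05% were, and the median ratio was 0.999. Tnc, the fifth, had a ratio of 1.02. Barx1, Nkx3-2 and Postn were below that level in foregut. The summed level of the cardiomyocyte list was also higher in medial foregut, as given above, and so was that of the other gut mesenchyme factors, at 323 FPKM against 205. These sums overlap, since both lists hold Nkx2-5 (20.7 FPKM in medial foregut and 10.3 in foregut) and Tbx5 (43.5 and 27.5). Neural crest genes went the other way. Crabp1, a retinoic acid binding protein gene named after its values were seen, had 457 FPKM in foregut and 325 in medial foregut, the other 10 genes summed to 47.3 and 11.9, and Sox10, the defining factor of migrating crest, stood at 8.10 and 0.560. Whether these cell types take part in the differences of the 8 genes was not tested.

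Marker lists of other cell types also differed between the pancreatic libraries, and their counts stand beside the 0.768% of all named loci called lower and the 0.913% called higher in ventral pancreas. For each list with a called gene or a sum led by 1 gene, the gene with the largest ventral-dorsal gap in FPKM is given apart from the rest, a choice made after the values were seen. Of 11 endothelial genes found, 4 were called lower and 2 higher. Sox17 stood at 65.9 FPKM in ventral pancreas and 0.821 in dorsal, while the other 10 summed to 59.8 and 81.2. The Sox17 locus has 533% of the annotated gene length. Egfl7, the highest of the other 10 in both libraries, ran against their sum, at 32.2 and 21.1 FPKM. It was named after its values were seen. The 4 lower genes, among them Cdh5 (1.37 against 10.7) and Emcn (1.68 against 11.3), ran opposite to Sox17. Flt1 (14.3 against 2.17) ran with it. Whether the Sox17 level came from endothelial cells was not tested. Of 15 general mesenchyme genes found, Cdh11 and Igf1 were called lower and 0 higher. Dlk1 stood at 1718 and 485 FPKM, while the other 14 summed to 355 and 567. Here too the list without its leading gene was higher in dorsal pancreas. Dlk1 was highest in liver, at 2377 FPKM, where the other 14 summed to 421. Whether the Dlk1 level came from mesenchyme was not tested. Of 12 genes of the septum transversum and mesothelium found, Hgf and Lhx2 were called higher and 0 lower. Hgf, encoding hepatocyte growth factor, stood at 84.6 and 0.816 FPKM, and the other 11 summed to 78.6 and 68.1. Of 11 neural crest genes Ngfr was called lower and 0 higher. Crabp1 stood at 68.1 and 19.3 FPKM, while the other 10 summed to 16.0 and 31.3. Of 8 pericyte genes Des was called lower and 0 higher, and without Des, whose values are given above, the other 7 summed to 42.03 and 47.93 FPKM. The pericyte gene Kcnj8 was listed at 0 in ventral pancreas and in both E8.5 libraries, and stood at only 0.403 FPKM in dorsal pancreas and 0.478 in liver. Of 6 somite and sclerotome genes found 0 were called, with the cartilage collagen gene Col2a1 at 124 and 73.7 FPKM and the other 5 summing to 46.6 and 41.7. Of 16 epithelial genes 0 were called, with sums of 1861 and 1084 FPKM. The part of these cells in the differences of Barx1, Nkx3-2, Foxf1a, Tnc, Pdgfra and Postn was not tested.

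For each gene, the 3 loci with the nearest profile were listed by the same distance, with no statement on shared control. Barx1 was nearest to Tnc (0.83), the growth factor gene Fgf9 (0.90) and the Hox gene Hoxb8 (0.91). Fgf9 went from 0.477 FPKM (ventral) to 17.6 (dorsal), and Hoxb8 at 0.504 and 30.9. Nkx3-2 was nearest to 3110047P20Rik (0.19), Sytl2 (0.21) and Fgf9 (0.27), and Foxf1a to Nkx3-2 (0.28), Lgi2 (0.33) and Chl1 (0.35). Tnc was nearest to the neurofilament gene Nefl (0.48), Hoxb8 (0.51) and Sytl2 (0.52). These profiles are alike chiefly in 1 high library, dorsal pancreas, so they rest largely on a single value per gene. Pdgfra was nearest to Amph (0.30), Gpr124 (0.31) and Gnb4 (0.37), and Gpr124 stood at 14.9, 25.6, 6.80, 2.47 and 19.2 FPKM in foregut, medial foregut, liver, ventral and dorsal pancreas. Postn was nearest to Thbs1 (0.24), Mgam (0.31) and Cmah (0.33). The loci of Mgam and Cmah cover 35.0% and 34.5% of the annotated gene lengths. Tagln was nearest to Wnt2 (0.28), Smpx (0.30) and Nid2 (0.31). Wnt2, a ligand gene of foregut mesenchyme and heart, had 16.0 FPKM in the foregut and 26.7 in the medial foregut, with 2.60 for liver, 0.0789 for ventral and 0.00611 for dorsal pancreas. The basement membrane gene Nid2 stood at 77.6, 105, 37.6, 8.42 and 4.59 FPKM in the same order.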

How the data were processed

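The authors deposited 1 table of FPKM values for 5 libraries, per the file headers. TopHat 1.33, Cufflinks 1.3.0 and the build mm9 appear in the submitters' processing notes, with no role or order, and no source used here gives the scaling between libraries. Columns were assigned to tissues by the column name in each sample's description. Of 14053 loci, 1678 without a gene name were left out. A search of the lowest FPKM for steps of whole reads found none, since at most 3 loci of any pair of libraries shared a ratio, so depth in reads is unknown and no interval is given. Coordinates are the table's; GENCODE M21 and RefSeq are on GRCm38 and were used for names, strand, span and sequence only. Differences of log2(FPKM + 1) were computed from the deposited FPKM with Python 3.11.15, pandas 2.3.3 and numpy 2.4.6, and the calling rule was tested on simulated data, a check of the arithmetic only. The genes, gene lists and comparisons were chosen with earlier results of these data known. Named are the 8 genes, up to 4 called genes with the largest difference of a list described, the 3 nearest profiles per gene, and others where the text says so. The values of 1 gene of the gut mesenchyme factor list are not reported here. List members were found by exact name or, for names no longer current, by synonym. Other settings were a pseudocount of 0.1 or 5 FPKM, libraries rescaled to a total of 1000000 or by median ratios, sizes of 1 or 3, no minimum level, and loci with a mean of at least 1 FPKM; leaving out 1 reference library was added after seeing the data.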

Additional observations from a re-analysis of the deposited data

Results flagged for a closer look

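Against the same 2 E8.5 libraries, some genes differed in opposite directions in 2 of the E10.5 libraries, and with 1 library per tissue this was not tested. Tnc was higher in dorsal pancreas than in each E8.5 library (3.67 and 3.65) and lower in liver (-0.96 and -0.98) and ventral pancreas (-1.21 and -1.23), so that dorsal pancreas exceeded liver by 4.64 and ventral pancreas by 4.88. Barx1 was higher in dorsal pancreas (6.14 and 5.61) and lower in liver (-0.06 and -0.59), a gap of 6.19. Foxf1a was higher in dorsal pancreas (3.12 and 2.55) and lower in liver (-0.30 and -0.87), a gap of 3.42, and Nkx3-2 (3.34 and 3.29 against -0.04 and -0.09) had a gap of 3.38. In liver, Barx1 and Nkx3-2 lay under 1 FPKM, as they did at E8.5, and their lower values there are differences between very low levels.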

How the results depend on the processing

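With 1 library per tissue no result could be set against replicate error, and depth in reads limits the low values to an unknown degree. No paired analysis was possible because each tissue has 1 library. Over 4 settings of pseudocount and scaling, 192 differences of the 8 genes were recomputed; 183 kept their side of the size rule, 9 were no longer called, and 0 of the called ones changed sign. A pseudocount of 5 FPKM accounted for 8 of the 9: the called genes fell from 2 to 1 in liver against both pancreatic libraries (Tagln at 1.36), from 6 to 3 in ventral against dorsal pancreas (Nkx3-2 at -1.53, Foxf1a at -1.88 and Postn at 1.25), from 4 to 2 in ventral pancreas against E8.5 (Pdgfra at -1.78 and Postn at 1.54) and from 6 to 4 in dorsal pancreas against E8.5 (Nkx3-2 at 1.52 and Foxf1a at 1.69). A larger pseudocount shrinks the differences of low genes by construction. A size of 3 left 1 called gene in liver against both pancreatic libraries, 2 in ventral pancreas against E8.5 and 0 in liver against E8.5, where a size of 1 gave 3. Leaving out ventral pancreas as a reference took the called genes in liver against pancreas from 2 to 7, and leaving out dorsal pancreas left 2. Leaving out foregut took liver against E8.5 from 1 to 3, and leaving out medial foregut left 1; these settings were chosen after seeing the data. In ventral and dorsal pancreas against E8.5 the counts stayed at 4 and 6 without either E8.5 library.

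Over all named loci, counts of calls moved by over 1.5 times in 24 of 48 recomputations. In the order liver against pancreas, ventral against dorsal, the 2 E8.5 libraries, and then liver, ventral and dorsal pancreas each against E8.5, the reported counts were 316, 208, 6, 545, 427 and 325. A pseudocount of 5 FPKM gave 92, 60, 1, 221, 149 and 134, a size of 1 gave 1048, 712, 92, 1402, 1199 and 886, and a size of 3 gave 77, 63, 1, 230, 165 and 137. Rescaling to a total of 1000000, which about doubles every value over an unchanged pseudocount, gave 492, 315, 16, 736, 652 and 492. With a pseudocount of 0.1 FPKM there were 11 between the E8.5 libraries. The share of calls that were higher also depended on the setting. In liver against pancreas it was 40.8% as reported, 29.3% under the rescaling to 1000000 and 60.9% with a pseudocount of 5. Between the E8.5 libraries, with few calls, it was 83.3% as reported, 93.8% under the rescaling, 72.7% with a pseudocount of 0.1, 63% with a size of 1 and 0% with a pseudocount of 5 or a size of 3. With a pseudocount of 5 and with a size of 3, it was 64.7% and 65.2% in place of 51.9% in liver against E8.5, and 42.5% and 38% in place of 55.1% in dorsal pancreas against E8.5. In ventral against dorsal pancreas it went from 54.3% to 47.3% under the rescaling. Leaving out ventral or dorsal pancreas gave 676 or 496 in place of 316.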
